A study of Rattus norvegicus with 26 samples.

Results

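The transcripts described here encode 8 genes of extracellular matrix breakdown: the matrix metalloproteinases Mmp2, Mmp3, Mmp9 and Mmp14, the tissue inhibitors of metalloproteinases Timp1, Timp2 and Timp3, and Adamts1, a secreted metalloproteinase with thrombospondin repeats. Their probes were found by gene symbol through the RefSeq accession that each probe carries, and they are 8 of the 15168 genes that the arrays name. RNA came from thoracic aortas of male rats of the spontaneously hypertensive strain (SHR), an inbred line that develops high blood pressure. No normotensive strain is among the 26 arrays, so each group is a hypertensive one. Saline was given to 8 rats at 7.5 mL per kg, the herbal Songling Xuemaikang capsule (SXC) at a lower dose of 236.25 mg per kg to 6 rats and at a higher one of 708.75 mg per kg to 6 rats, and valsartan, which blocks angiotensin II at its type 1 receptor, at 21.6 mg per kg. Valsartan has 6 arrays here, while the series text states 8 rats. All agents were given by mouth for 4 weeks and the rats were killed on day 28. Dosing with SXC fell in the morning and at midday, dosing with valsartan later in the day, so that agent and hour of dosing cannot be told apart. The hour of tissue collection and the age of the rats are not given in the sources used here.

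Matrix metalloproteinases are zinc-dependent enzymes that are made as inactive precursors and cut collagens, elastin, proteoglycans and other matrix proteins of the vessel wall. Mmp14 is anchored in the cell membrane and activates the precursor of Mmp2, a gelatinase, in a complex that needs Timp2, which at higher amounts inhibits both enzymes. Timp1 inhibits mainly the secreted metalloproteinases, among them Mmp9, and Timp3 is bound to the matrix and also inhibits Adam and Adamts proteases. Adamts1 cleaves versican and other proteoglycans. The aortic wall of hypertensive animals is known for remodelling of its elastin and collagen, in which these enzymes take part.

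The RefSeq promoter table (build GRCr8) holds a window for 5 of the 8 genes, from 250 bases before to 50 bases after the annotated transcription start. The windows of Timp1, Timp2 and Timp3 are printed because these inhibitors varied together over the arrays, and that of Adamts1 because it did not vary with them. All 4 are on the minus strand and are written 5′ to 3′ in the direction of transcription. They lie at chrX:3771073-3771372 for Timp1, chr10:104089165-104089464 for Timp2, chr7:19459509-19459808 for Timp3 and chr11:38427335-38427634 for Adamts1. Capitals mark letters that match a searched motif on either strand.
Timp1: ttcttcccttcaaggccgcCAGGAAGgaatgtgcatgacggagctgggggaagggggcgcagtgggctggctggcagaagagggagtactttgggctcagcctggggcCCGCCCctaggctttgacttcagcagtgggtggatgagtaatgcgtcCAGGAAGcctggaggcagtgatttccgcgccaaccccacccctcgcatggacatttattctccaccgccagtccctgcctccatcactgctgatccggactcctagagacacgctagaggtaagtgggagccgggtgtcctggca
Timp2: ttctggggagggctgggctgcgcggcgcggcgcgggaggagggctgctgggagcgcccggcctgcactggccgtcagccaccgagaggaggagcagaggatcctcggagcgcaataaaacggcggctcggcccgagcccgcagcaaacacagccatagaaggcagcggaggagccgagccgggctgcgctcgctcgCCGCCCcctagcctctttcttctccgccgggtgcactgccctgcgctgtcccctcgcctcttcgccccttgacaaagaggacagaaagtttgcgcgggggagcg
Timp3: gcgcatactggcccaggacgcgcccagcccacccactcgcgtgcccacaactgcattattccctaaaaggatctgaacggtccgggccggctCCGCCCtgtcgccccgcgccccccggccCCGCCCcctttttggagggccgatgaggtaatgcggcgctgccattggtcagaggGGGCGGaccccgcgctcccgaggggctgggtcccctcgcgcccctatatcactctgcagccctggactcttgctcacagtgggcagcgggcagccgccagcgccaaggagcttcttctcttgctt
Adamts1: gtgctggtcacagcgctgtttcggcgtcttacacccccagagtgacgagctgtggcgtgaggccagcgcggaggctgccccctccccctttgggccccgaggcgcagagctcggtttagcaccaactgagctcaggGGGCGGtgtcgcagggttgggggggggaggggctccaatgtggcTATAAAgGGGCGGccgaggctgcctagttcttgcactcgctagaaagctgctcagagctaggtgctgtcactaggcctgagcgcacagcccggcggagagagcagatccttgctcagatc

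The motifs searched on both strands were AP-1 (TGACTCA or TGAGTCA), ETS (CAGGAAG), a 10-base NF-kB consensus, Sp1 (GGGCGG) and the TATA box (TATAAA), none of which contains another. The Timp1 window has 2 ETS matches, which 12.5% of all 33469 windows of this length hold at least once, and 1 Sp1 match. Sp1 letters were found in 33.1% of all windows. They occur 1 time in the Timp2 window, 3 times in the Timp3 window and 2 times in the Adamts1 window. The Adamts1 window also has a TATA match (14.2% of windows). None of these 4 windows has the AP-1 letters (4.63%) or the NF-kB letters (0.111%), which says only that these letters are not in these windows. GC content was 61.3% for Timp1, 70.3% for Timp2, 68.7% for Timp3 and 65.0% for Adamts1, against a median of 51.7% over all windows. Mmp3 has a window with 42.0% GC that is not printed because its probe gave no usable signal, and no window was at hand for Mmp2, Mmp9 and Mmp14.

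Each array was hybridised with 1 Cy3-labelled sample. A level below is log2 of the processed signal minus the 75th percentile of its array, so that 0 is the signal of that percentile. A difference is called when its adjusted p, from limma with Benjamini-Hochberg adjustment over the 23744 probes tested, is under 0.05. The share of probes well above background ran from 67.34 to 76.16% with saline, from 69.98 to 77% with the lower SXC dose, from 28.67 to 79.25% with the higher one and from 32.41 to 56.46% with valsartan. A lower detector gain, 323 to 325 V against 353 to 354 V, was used on 4 high-dose and all 6 valsartan arrays, which include every share below the saline range. All saline arrays were scanned on 1 day, 82 days after the last treated array, so that against saline the treatment and the scan cannot be told apart. The 9 smooth muscle and 9 adventitial fibroblast markers with a probe, cells that an aorta should hold, were each well above background on at least 1 array of every group. Of 10 endothelial markers, cells that an aorta also holds, 7 were lower than with saline in each of the 3 comparisons. Erg was among them only under valsartan, and Tie1 only under SXC. Cdh5, on the same list, was higher in each, by 1.72, 0.72 and 1.83 under the higher dose, the lower dose and valsartan. Over all probes 21.4%, 17.1% and 25.2% were called lower in that order. No valsartan array had Esam, Cldn5, Nos3, Emcn or Tek well above background. Saline arrays differed from the treated ones in other markers too. Red cell markers summed to a log2 level of 7.88 to 9.36 on saline arrays and 2.17 to 4.98 on treated ones, and white fat markers to 3.68 to 7.97 against 2.10 to 4.94. Of 12 macrophage markers, 10, 9 and 11 were lower than with saline under the higher dose, the lower dose and valsartan. The part of these cells in the results below was not tested. In whole tissue, fewer cells of a type and less RNA per cell cannot be told apart.

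Mmp14 was higher than with saline in all 3 treated groups. Adamts1 was lower than with saline in both SXC groups and stood higher under valsartan than under either dose. Of the 8 genes, 6 passed the filter on dim probes and were tested. For high-dose SXC against saline 3 of the 6 were called, with Mmp14 and Timp3 higher and Adamts1 lower, while 57.1% of all probes were called in that comparison. For low-dose SXC 2 were called (39.6% of all probes), Mmp14 higher and Adamts1 lower. For valsartan 1 was called, Mmp14, as higher (58.4%). Against saline, called changes were thus no more frequent among these genes than on the arrays as a whole. The 3 comparisons share the same saline arrays, which were scanned apart from all treated ones, so that treatment and scan cannot be told apart in them. The median difference of the 6 genes was 0.14, 0.19 and 0.17 for the higher dose, the lower dose and valsartan, against 0.25, 0.09 and 0.19 over all probes. Between treatments, 0 of 6 were called for high against low dose (limma, 22.2% of all probes; also 0 of 6 at an unadjusted p under 0.05), 1 of 6 for valsartan against low dose (25.2%) and 1 of 6 for valsartan against high dose (1.37%); both of these calls are Adamts1. The plot of differences between groups shows all 6 comparisons.

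**Figure D1:**
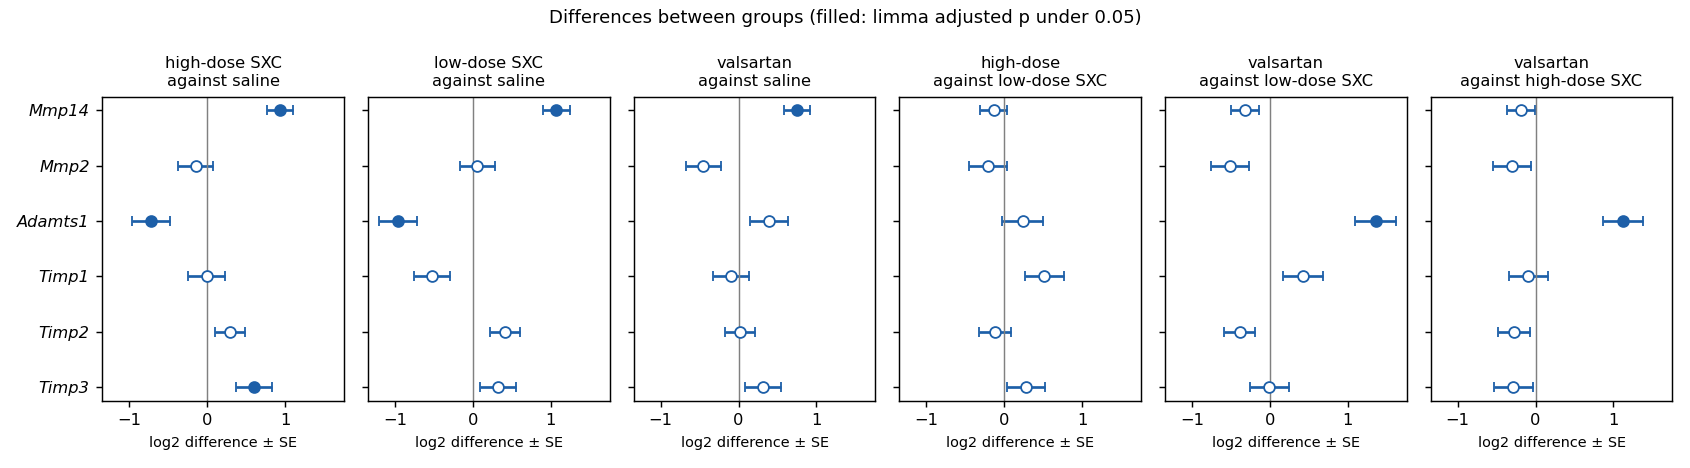
Log2 difference between groups (horizontal axis, point with its standard error) for the 6 genes tested, 1 panel per comparison; filled points have a limma adjusted p under 0.05. Mmp14 lies at 0.94, 1.08 and 0.75 in the 3 comparisons with saline, and Adamts1 lies below 0 for both SXC doses and above 0 wherever valsartan is compared.

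Mmp14, the membrane-anchored activator of pro-Mmp2, was the only one of the 6 whose treated and saline arrays did not overlap. Its level was 2.78 at the lowest, 3.91 at the median and 3.96 at the highest on the 8 saline arrays. On low-dose arrays it was 4.54, 4.65 and 4.80, on high-dose arrays 4.44, 4.48 and 4.71, and on valsartan arrays 4.19, 4.24 and 4.60. All 18 treated arrays therefore stood above all 8 saline arrays, and the treated groups overlapped each other. Against saline (3.58 ± 0.52, SD, n = 8), Mmp14 was 1.92-fold higher under high-dose SXC (4.52 ± 0.10, n = 6; log2 difference 0.94 ± 0.17, SE; limma adjusted p = 3.81e-05). It was 2.11-fold higher under low-dose SXC (4.66 ± 0.10; 1.08 ± 0.17; adjusted p = 1.275e-05) and 1.69-fold higher under valsartan (4.34 ± 0.19; 0.75 ± 0.17; adjusted p = 0.0004363). Groups without overlap in either direction made up 29.1%, 31% and 30.8% of all probes in these 3 comparisons. The order of the means, low dose, high dose, valsartan, saline, has no called step among the treated groups. High minus low dose was -0.14 (95% interval -0.51 to 0.23), valsartan minus low dose -0.32 (-0.69 to 0.05) and valsartan minus high dose -0.18 (-0.55 to 0.19).

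The Mmp14 probe is printed in 10 spots per array and was well above background in 260 of 260 spots, with a median SD of 0.0443 between the spots of an array. The spread among saline arrays therefore lies far above that between spots. Saline arrays 3 and 7 were the lowest. Without both the difference was 0.67 for high-dose SXC, 0.81 for low-dose SXC and 0.49 for valsartan, each still called (limma adjusted p = 5.651e-06, 9.07e-07 and 0.0002259). Leaving out the lowest arrays narrows the saline SD from 0.52 to 0.19, so these p-values are no independent support. With detector gain as a block the valsartan difference was 0.66 and no longer called (limma adjusted p = 0.1796), where 13.7% of all probes were called.

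**Figure D2:**
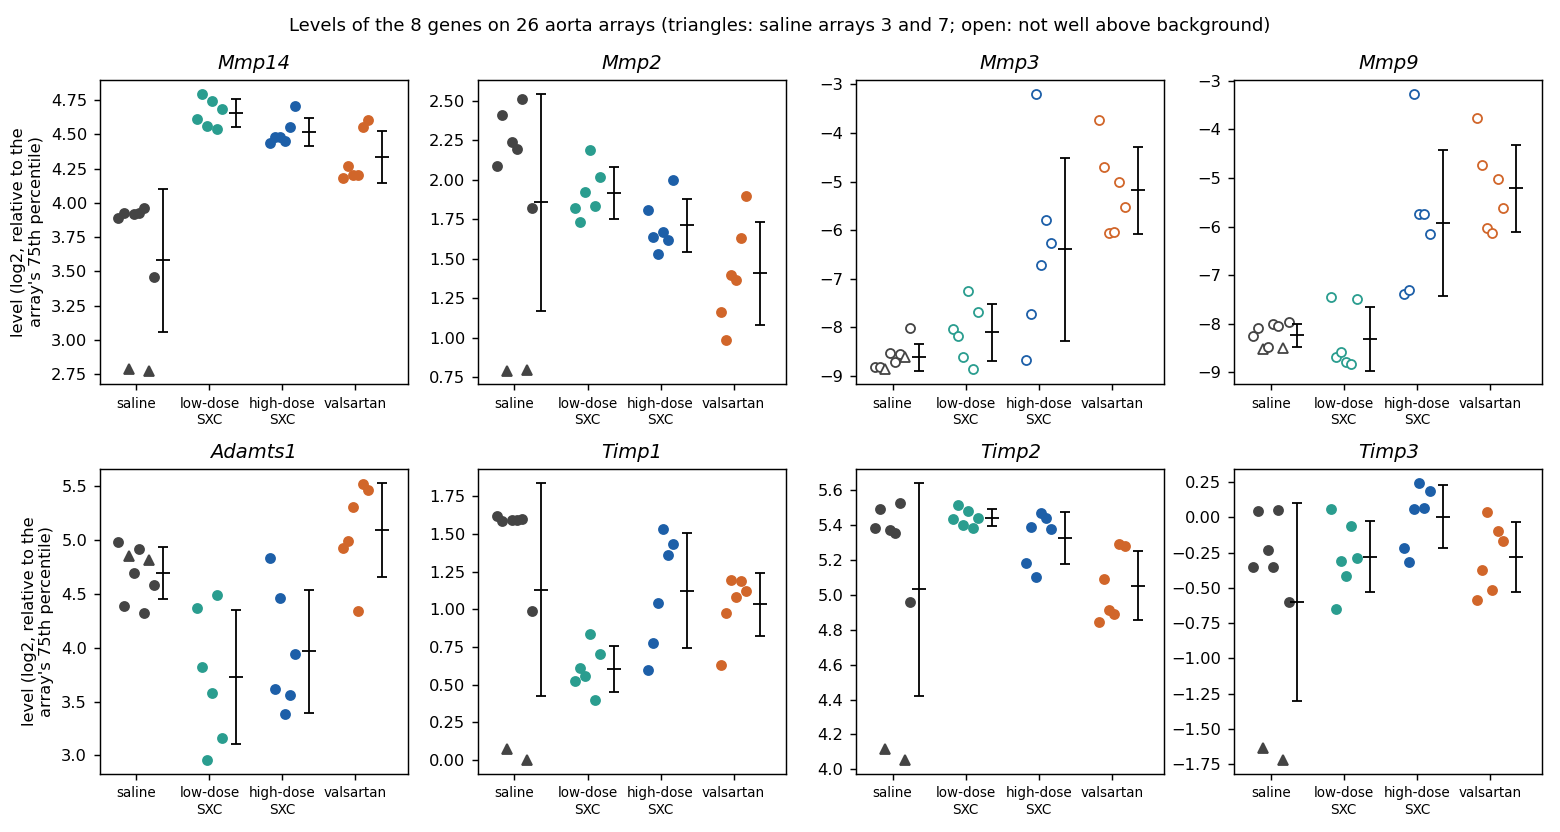
Level of each gene on each of the 26 arrays (vertical axis, log2 of the processed signal relative to the 75th percentile of the array; axes differ between panels and do not start at 0), with the group mean and SD beside the points; triangles are saline arrays 3 and 7 and open circles are not well above background. Mmp14 lies at 4.19 or higher on every treated array and at 3.96 or lower on every saline array, whereas the triangles lie at the bottom for Mmp14, Mmp2, Timp1, Timp2 and Timp3 but not for Adamts1.

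Mmp2, the gelatinase that Mmp14 activates, was not called in any of the 6 comparisons over all arrays. Its saline levels were 0.79, 2.14 and 2.51 (lowest, median, highest), and its levels were 1.73, 1.88 and 2.19 under low-dose SXC, 1.53, 1.65 and 2.00 under high-dose SXC and 0.98, 1.38 and 1.90 under valsartan. The 3 treated groups all lay within the range of the saline arrays. The difference from saline was 0.06 ± 0.22 (SE; 95% interval -0.40 to 0.52) for low-dose SXC, -0.15 ± 0.22 (-0.61 to 0.31) for high-dose SXC and -0.45 ± 0.22 (-0.91 to 0.0094; limma adjusted p = 0.08581) for valsartan. Without saline arrays 3 and 7, the lowest for this gene, the remaining 6 saline arrays ran from 1.82 to 2.51. Mmp2 was then lower by the test under high-dose SXC (-0.50, limma adjusted p = 0.003609) and valsartan (-0.81, 3.233e-05), and not called under low-dose SXC (-0.29, 0.09893). Leaving out the lowest arrays raises the saline mean, from 1.86 to 2.21, and narrows its SD, from 0.69 to 0.24. These calls are therefore no independent test. A second, dimmer Mmp2 probe had differences of the same sign in the 6 comparisons. By that probe the test called valsartan below low-dose SXC (-0.90 ± 0.26, limma adjusted p = 0.01351), where the brighter probe gave -0.51 ± 0.24 (0.1187).

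Mmp3 (stromelysin-1) and Mmp9 (gelatinase B) were not well above background on any of the 26 arrays and were not tested. The Mmp9 probe has 10 spots per array, and 12 of 260 spots were well above background, at most 2 on an array. The signal at the Mmp3 probe ran from -8.87 to -8.01 on saline arrays and from -6.05 to -3.74 on valsartan arrays, and that at the Mmp9 probe from -8.52 to -7.97 and from -6.14 to -3.76. The floor of the arrays, the lowest level that was well above background, also differed and ran from -6.68 to -5.90 on saline, -6.86 to -5.53 on low-dose, -6.73 to -1.04 on high-dose and -4.36 to -1.61 on valsartan arrays. No difference between groups can be read for either gene at this signal.

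Timp1, which inhibits mainly secreted metalloproteinases, was not called in any of the 6 comparisons over all arrays. Saline levels were 0.0013, 1.59 and 1.62, low-dose levels 0.40, 0.58 and 0.84, high-dose levels 0.60, 1.20 and 1.53 and valsartan levels 0.63, 1.10 and 1.19. Of the saline arrays, 3 and 7 lay below every treated array, array 8 lay within the high-dose and valsartan ranges at 0.99, and the other 5 stood above every treated array. The low-dose difference from saline was -0.53 ± 0.24 (SE; limma adjusted p = 0.07833), the high-dose one -0.01 ± 0.24 (0.9796) and the valsartan one -0.10 ± 0.24 (0.7366). Without saline arrays 3 and 7, Timp1 was lower under all 3 treatments, at -0.89, -0.37 and -0.46 for low-dose SXC, high-dose SXC and valsartan (limma adjusted p = 5.818e-05, 0.04125 and 0.01254). Leaving out these lowest arrays raises the saline mean from 1.13 to 1.50 and narrows its SD from 0.71 to 0.25. These calls are therefore no independent test. Low-dose SXC had the lowest mean (0.61 ± 0.15, SD, n = 6), and the high-dose minus low-dose difference was 0.52 ± 0.25 (95% interval -0.0004 to 1.04; limma adjusted p = 0.142).

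Timp2, the inhibitor that also joins pro-Mmp2 to Mmp14, was not called either. Its levels were 4.05, 5.36 and 5.53 on saline arrays and 5.39, 5.44 and 5.52 on low-dose arrays. They were 5.10, 5.38 and 5.47 under high-dose SXC and 4.85, 5.00 and 5.29 under valsartan. Every valsartan array lay below every low-dose array, as for 14.8% of all probes in either direction, and that difference was -0.39 ± 0.20 (SE; limma adjusted p = 0.1639). The differences from saline were 0.41 ± 0.19 (limma adjusted p = 0.08963), 0.29 ± 0.19 (0.1909) and 0.02 ± 0.19 (0.9338) for low-dose SXC, high-dose SXC and valsartan. Without saline arrays 3 and 7 they were 0.09, -0.02 and -0.30, and only the valsartan one was then called, as lower (limma adjusted p = 0.01833). These are the lowest saline arrays for Timp2, and without them the saline mean is 5.35 instead of 5.03. That call is therefore no independent test.

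Timp3, the matrix-bound inhibitor, was 1.52-fold higher under high-dose SXC, a call that 10 of 17 alternatives, besides those that leave out 1 array, did not keep. Saline levels were -1.72, -0.35 and 0.05, high-dose levels -0.31, 0.06 and 0.24, low-dose levels -0.65, -0.30 and 0.06 and valsartan levels -0.58, -0.27 and 0.04. All 4 groups overlapped. The high-dose difference from saline was 0.60 ± 0.23 (SE; means 0.0036 ± 0.22, SD, n = 6 and -0.60 ± 0.70, n = 8; limma adjusted p = 0.02865), and it was 0.24 (0.1652) without saline arrays 3 and 7. With all arrays kept, the call was lost with slide, inferred from a shared scan time, as a random block (0.60, limma adjusted p = 0.1016). It was lost too with gain as a block (0.33, 0.4949) and after quantile normalisation (0.49, 0.06962). It was also lost without saline array 3 alone (0.46, 0.06709), saline array 7 alone (0.44, 0.06511), high-dose array 4 (0.56, 0.06164) or high-dose array 6 (0.57, 0.0548). Low-dose SXC and valsartan differed from saline by 0.32 ± 0.23 each, not called (limma adjusted p = 0.2844 and 0.243).

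Adamts1, the versican-cleaving protease, was called higher under valsartan than under either SXC dose. Neither call was kept with scan day as a block, and all valsartan but no low-dose arrays had the lower gain. Its levels were 4.33, 4.75 and 4.98 on saline arrays, 2.96, 3.70 and 4.49 under low-dose SXC, 3.38, 3.78 and 4.83 under high-dose SXC and 4.34, 5.15 and 5.51 under valsartan. Both SXC groups reached down well below the saline arrays but overlapped them at the top, and 5 of the 6 valsartan arrays were above every low-dose and every high-dose array. Adamts1 was 1.95-fold lower than saline under low-dose SXC (3.73 ± 0.62, SD, n = 6, against 4.69 ± 0.24, n = 8; log2 difference -0.96 ± 0.24, SE; limma adjusted p = 0.002363). It was 1.66-fold lower under high-dose SXC (3.97 ± 0.57; -0.73 ± 0.24; adjusted p = 0.01265). Valsartan (5.09 ± 0.44) differed from saline by 0.40 ± 0.24, not called (95% interval -0.10 to 0.89; adjusted p = 0.1629).

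Valsartan stood 2.57-fold above low-dose SXC for Adamts1 (1.36 ± 0.26, SE; limma adjusted p = 0.0006126) and 2.18-fold above high-dose SXC (1.12 ± 0.26; adjusted p = 0.03079). The doses of SXC differed by 0.24 ± 0.26 (95% interval -0.30 to 0.77). The Adamts1 probe has 10 spots per array, all well above background, with a median SD of 0.043 between spots. Saline arrays 3 and 7 were not low for this gene, and without them the low-dose and high-dose differences were -0.92 and -0.68, both called (limma adjusted p = 0.008335 and 0.03322). The high-dose call was lost with slide as a random block (-0.68, limma adjusted p = 0.07338), with gain as a block (-0.47, 0.3469) and with saline as 3 means of like pairs (1 with 5, 2 with 6, 3 with 7), without arrays 4 and 8 (-0.75, 0.08864). It was kept when arrays 4 and 8 stood beside those means (-0.72, 0.03712). Valsartan against high-dose SXC lost its call in 6 of 12 fits without 1 array of either group (1.01 to 1.30), with normexp background correction (1.08, limma adjusted p = 0.1762) and with scaling to smooth muscle probes (1.18, 0.1928). It also kept its direction but not its call with slide as a random block (1.06, limma adjusted p = 0.315), within scan days (0.89, 0.3084) and on the lower-gain arrays alone (1.25, 0.09783). These 3 settings called 0.0168%, 1.68% and 0.0168% of all probes in that comparison. With either gain or scan day as a block, 0.0126% of all probes were called for valsartan against low-dose SXC. Adamts1 was 1.75 with gain as a block and 1.35 with scan day as a block, both not called (limma adjusted p = 0.3978 and 0.7808). No low-dose array shares a gain or a scan day with a valsartan array, so these values pass through the high-dose arrays.

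A difference between 2 probes on the same array is free of the scaling of that array, and its change between groups shows unequal change of the pair. Mmp14 minus Timp2 ran from -1.57 to -1.28 on the 8 saline arrays. On the treated arrays it ran from -0.84 to -0.72 (low dose), from -1.01 to -0.62 (high dose) and from -0.83 to -0.66 (valsartan). No treated array reached the saline range, saline arrays 3 and 7 included, and the mean was higher than with saline by 0.66, 0.64 and 0.73. Mmp2 minus Timp2, by the brighter Mmp2 probe, lay the other way. It ran from -3.32 to -3.01 with saline, from -3.82 to -3.38 under high-dose SXC and from -4.11 to -3.38 under valsartan. Neither overlapped saline, but each came close, at -3.38 against -3.32. Under low-dose SXC it ran from -3.78 to -3.29, which overlapped. Its mean differed from that with saline by -0.44, -0.47 and -0.35 in that order. The dimmer Mmp2 probe alone differed from saline by -0.10, -0.53 and 0.37, and the brighter one by -0.15, -0.45 and 0.06. The pair was not formed with the dimmer probe, so these gaps rest on the brighter one. Of single probes, 29.1%, 30.8% and 31% had no overlap with saline in those same comparisons, in either direction. How often other pairs of probes have none was not tested, so the gaps of these pairs cannot be set against the arrays as a whole. Saline and treated arrays were also scanned on separate days. Adamts1 minus Timp3 ran from 4.86 to 5.63 under valsartan, above the low-dose range of 3.27 to 4.55, and from 3.14 to 5.05 under high-dose SXC and 4.27 to 6.54 with saline, which overlapped the valsartan range. The plot of protease minus inhibitor shows the 3 pairs.

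**Figure D3:**
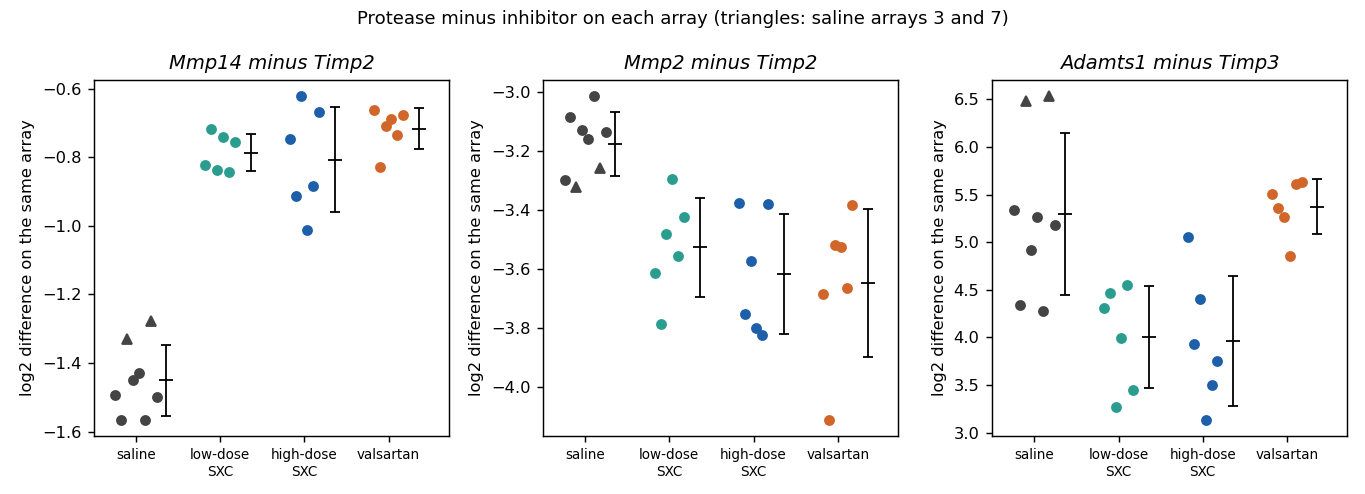
Log2 difference of protease minus inhibitor on the same array (vertical axis) for 3 pairs, 1 point per array with the group mean and SD; triangles are saline arrays 3 and 7. For Mmp14 minus Timp2 all 8 saline arrays lie between -1.57 and -1.28 and all 18 treated arrays between -1.01 and -0.62.

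The low levels of saline arrays 3 and 7 were shared by 5 of the 6 genes measured, Mmp2, Mmp14, Timp1, Timp2 and Timp3. The same 2 arrays had the highest summed white fat markers, 7.88 and 7.97, against 3.68 to 7.20 on the other 6 saline arrays. Array 8, next above them for those 5 genes, held the 7.20. Their smooth muscle markers summed to 6.25 and 6.91 against 7.55 to 8.09, their adventitial fibroblast markers to 7.02 and 7.14 against 7.80 to 8.25, and their endothelial markers to 5.12 and 5.34 against 3.75 to 4.93. Saline arrays 3 and 7 also resembled each other, with a median absolute difference of 0.147 over probes. So did arrays 1 and 5 (0.135) and 2 and 6 (0.106), while the other 25 saline pairs ran from 0.143 to 0.618. The labels state separate extraction for each rat, and whether these pairs share material was not tested. With saline taken as the 3 averages of these pairs, which leaves out arrays 4 and 8, Mmp14 stayed called at 0.97, 1.11 and 0.79 under the higher dose, the lower dose and valsartan (limma adjusted p = 0.0003676, 0.0002044 and 0.002116). Adamts1 stayed called under low-dose SXC (-0.98, 0.0419) and Timp3 under high-dose SXC did not (0.67, 0.05157). With arrays 4 and 8 kept beside the averages, as 5 saline samples, Mmp14 (0.92, 1.05 and 0.73), Adamts1 (-0.72 under high-dose and -0.95 under low-dose SXC) and Timp3 (0.57 under high-dose SXC, limma adjusted p = 0.03679) all stayed called.

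**Figure D4:**
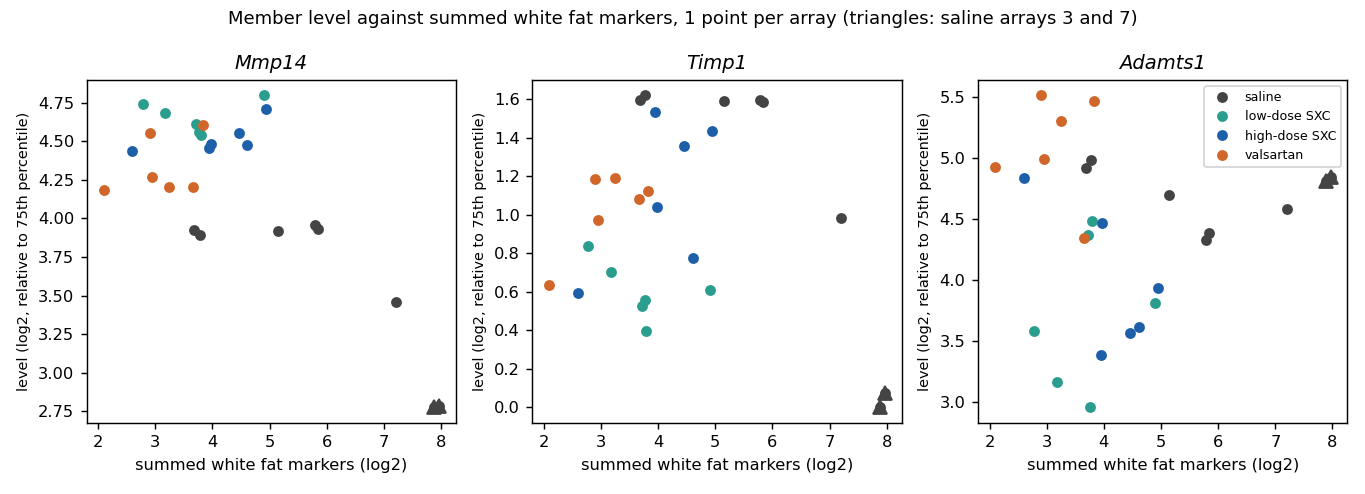
Level of Mmp14, Timp1 and Adamts1 (vertical axes, log2 relative to the 75th percentile of the array) against the log2 sum of white fat markers (horizontal axis), 1 point per array; triangles are saline arrays 3 and 7. Saline arrays with a fat sum above 7 are the lowest for Mmp14, the treated arrays lie between 2.10 and 4.94 on the horizontal axis, and Adamts1 has no low values at the high fat sums.

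Over the 26 arrays, after each group mean was subtracted, Mmp14 and Timp2 varied together most closely (Pearson r 0.97), followed by Mmp2 and Mmp14 (0.93), Mmp2 and Timp2 (0.91) and Timp1 and Timp2 (0.90). Timp2 and Timp3, and Timp1 and Timp3, had r of 0.87. Adamts1 had r between -0.25 and -0.0021 with the other 5 measured genes. These correlations describe arrays that share a scaling and, for 5 of the genes, saline arrays 3 and 7. The genes most like each member after that subtraction were Cap1 (0.97) and Ybx3 (0.96) for Mmp2, Col18a1 (0.98) and C1qtnf5 (0.97) for Mmp14 and Atp5mc1 and Lgals3bp (both 0.95) for Timp1. They were C1qtnf5 (0.98) and Col6a2 (0.96) for Timp2, Mbnl1 and Fstl1 (both 0.95) for Timp3 and Klf6 (0.90) and Abra (0.86) for Adamts1. With the group means kept, the nearest were Fbln5 and Snx10 (both 0.95) for Mmp2, Anxa2 and Chpf (both 0.97) for Mmp14, Gp1bb (0.92) and B3gnt2 (0.89) for Timp1, and Mob2 (0.95) and Sparc (0.94) for Timp2. They were Fstl1 (0.93) and Lpp (0.92) for Timp3 and Hopx (0.80) and Per2 (0.75), a gene of the circadian clock, for Adamts1.

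Among 18 other matrix metalloproteinases, 12 were tested. Of these, 4 were higher and 2 lower than with saline under high-dose SXC, 3 and 3 under low-dose SXC and 4 and 4 under valsartan. Not all of these rises are of measured levels: in 1 of 4, 2 of 3 and 2 of 4 each array of the higher group was well above background. Mmp13 was on none of the saline or valsartan arrays, and Mmp19 on 2 of 6 valsartan arrays, so that no rise can be read for Mmp13 under valsartan. Over all probes, the share called higher was 35.7%, 22.5% and 33.2% in that order, and the share called lower 21.4%, 17.1% and 25.2%. Values below are log2 differences from saline, in the order the higher dose, the lower dose and valsartan where 3 are given. The list's median difference was 0.11, 0.05 and 0.30. Mmp16, a membrane-anchored relative of Mmp14, was higher in all 3 comparisons, by 0.87, 1.16 and 1.11. Mmp17, another membrane-anchored member, was higher under low-dose SXC (0.76) and valsartan (0.69). Mmp12, the macrophage elastase, and Mmp27 were lower under high-dose and low-dose SXC, at -1.18 and -2.16 for Mmp12 and -2.53 and -2.86 for Mmp27. These values include signal at background, since Mmp12 was well above it on 1 high-dose and 4 low-dose arrays and Mmp27 on 2 and 4. On valsartan arrays neither was well above background. Mmp27 was there at least 1.73-fold lower than with saline, taking the higher of each array's floor and its signal as the bound, and no fold can be given for Mmp12. All calls of this and the lists that follow are at a limma adjusted p under 0.05. The shares over all probes given above are the measure for each of these lists, and the median over all probes was 0.25, 0.09 and 0.19.

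Of 7 other Adamts genes tested, 2 were higher and 1 lower under high-dose SXC, 1 and 1 under low-dose SXC and 2 and 1 under valsartan, with medians of 0.71, -0.30 and 0.67. Of the 2 rises, that of Adamts7 had 5 of 6 high-dose and 5 of 6 valsartan arrays well above background. Adamts9, a proteoglycan-cleaving relative, was higher by 0.90, 1.29 and 1.65. Adamts5, an aggrecanase that also cleaves versican, was lower, at -2.90 under high-dose SXC (4 of 6 arrays well above background) and -2.75 under low-dose SXC, and at least 6.28-fold lower under valsartan, where it was not well above background. The membrane-bound Adam list had 4 tested genes, with 0 higher. Under the higher dose, the lower dose and valsartan 2, 2 and 3 were lower (medians -0.34, -0.20 and -0.61), against 21.4%, 17.1% and 25.2% of all probes. Adam17, the sheddase that Timp3 inhibits, was lower, at -0.90, -0.86 and -1.44, and Adam9 at -1.09, -0.59 and -0.78. Adam17 was well above background on 4 of 6 valsartan arrays and Adam9 on 5 of 6 high-dose arrays.

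Of 9 tested activators of metalloproteinases, 2 were higher and 4 lower under high-dose SXC, 2 and 2 under low-dose SXC and 3 and 5 under valsartan (medians -0.64, -0.23 and -0.62). Plau, called higher under valsartan, was well above background on 4 of 6 valsartan arrays. Elane, neutrophil elastase, was higher by 6.80, 2.78 and 7.48, and Plg, plasminogen, by 1.54, 1.13 and 1.50. The 8 tested neutrophil markers, a list that holds Elane, gave 2, 1 and 2 higher and 3 in each comparison lower, while Ngp was well above background on no array of any group and S100a8 on no high-dose or valsartan array. Cxcr2, called higher under high-dose SXC and valsartan, was well above background on 4 of 6 and 1 of 6 of these arrays. Cma1, mast cell chymase, was lower, at -3.98 under high-dose SXC, where 3 of 6 arrays were well above background, at -4.01 under low-dose SXC and at least 5.98-fold lower under valsartan, where 0 of 9 mast cell markers were well above background on any array. The proprotein convertase Pcsk6 was lower under high-dose SXC (-1.08) and valsartan (-1.51), and Plaur, the urokinase receptor, under low-dose SXC (-0.75). The part of neutrophils and mast cells in these values was not tested.

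Of 8 tested genes listed as other inhibitors, 1 was higher and 4 lower under high-dose SXC, 0 and 3 under low-dose SXC and 1 and 4 under valsartan (medians -0.71, -0.46 and -0.83). Spock2, a proteoglycan of the testican family, was lower, at -1.66, -1.18 and -2.15. Whether Spock2 acts as an inhibitor was not tested, so its fall cannot be read as loss of one. Timp4, the remaining tissue inhibitor, was lower too, at -1.34, -1.47 and -0.96.

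Of 13 matrix substrates tested, 1 was higher and 4 lower under high-dose SXC, 3 and 1 under low-dose SXC and 1 and 5 under valsartan (medians -0.28, -0.04 and -0.33). Vcan, which encodes versican, the substrate of Adamts1, was higher by 1.36, 1.43 and 1.78. Dcn, decorin, was lower, at -2.64, -2.38 and -2.28. It is also on the adventitial fibroblast list, of which 4, 4 and 5 of 9 were lower and 1, 1 and 0 higher. The rise is that of Pdgfrb, by 0.57 under high-dose and 0.75 under low-dose SXC, and the other 4 of each comparison were not called. Of the collagen chains, Col1a2 was lower under high-dose SXC (-0.81) and valsartan (-0.81), and so was Col5a1 (-0.72 and -1.17, with 5 of 6 arrays of each group well above background). Col3a1 was lower under valsartan (-0.49), and Col4a1 was higher under low-dose SXC (0.56).

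Of 19 tested inducers and transcription factors that act on these genes, 4 were higher and 7 lower under high-dose SXC, 2 and 5 under low-dose SXC and 1 and 6 under valsartan (medians -0.15, -0.15 and -0.07). Of the 4 rises under high-dose SXC, 2 had every high-dose array well above background. The AP-1 subunit Jund was higher by 1.13, 1.32 and 1.33. Junb was higher under high-dose SXC (0.65), and Fosl2 under high-dose (0.76, 5 of 6 arrays well above background) and low-dose SXC (0.64). Other AP-1 subunits went the other way. Fosl1 was lower under high-dose SXC (-1.69, 3 of 6 arrays well above background) and valsartan (-1.84, 1 of 6), and Fos under low-dose SXC (-1.39). Jun was not called in any of the 3. Agt, angiotensinogen, was lower, at -2.33 (5 of 6 high-dose arrays well above background), -2.27 and -3.15 (4 of 6 valsartan arrays). Il6, an inflammatory cytokine, was lower, at -2.30 under high-dose SXC (2 of 6 arrays well above background), at -3.24 under low-dose SXC (5 of 6) and at least 1.77-fold lower under valsartan, where it was not well above background.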

How the data were processed

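The authors scanned 1-colour arrays and quantified spot intensity with Agilent Feature Extraction 11.0.1.1, per the file headers and the submitters' processing notes. The processed signal is background-corrected within an array and not normalised between arrays, per the file headers. The spot flags (0 or 1) are those of the deposited files. The authors' deposited value table holds log2 values of unstated normalisation, and served as an alternative. Group and replicate were taken from the sample titles. Slide was inferred and not read from a label: arrays whose headers give the same scan date and time were counted as 1 slide.

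Control spots and outlier spots were left out, spots of a probe were averaged, and each array was scaled to its 75th percentile. A probe was taken as well above background where 0.5 or more of its spots were, and was tested when that held on at least 6 of 26 arrays. All 4 groups entered 1 fit (limma 3.58.1 in R 4.3.3, eBayes with a trend, 2-sided), checked on simulated data. That simulation drew independent noise and changed 200 probes, with no effect of slide, gain or scan day. It therefore cannot show how often calls are false in this design. Symbols came from RefSeq accessions through the GRCr8 gene table, which matched 18005 of 30367 probes. Coordinates are printed for promoter windows alone, since the array files refer to rn4. The brightest probe stands for a gene. Other genes were named per list as the up to 2 largest called rises and falls well above background on each array of the brighter group, and as the 2 most similar in profile to each member. One result under this rule is not reported here, and some called genes were named beyond it after their values were seen. The members and lists were chosen with earlier results of these data known. No sequence of a protein was used here. Alternatives changed the background correction, scaling, filter, blocks and samples.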

Additional observations from a re-analysis of the deposited data

Results flagged for a closer look

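Mmp3 on saline array 8 stood apart from the other 7 saline arrays, at -8.01 against -8.87 to -8.52, by a gap of 0.594 of the range of the group, beyond the 95% limit of Dixon's test. None of these arrays had the probe well above background. This was 1 of 32 groups examined, and chance gives about 1 in 20.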

How the results depend on the processing

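Of 36 differences of single genes, 8 were called, and none of these 8 changed direction in 232 re-computations, of which 33 lost the call. The main limits are the saline arrays, all scanned apart from the treated ones and the lower gain on the valsartan and 4 high-dose arrays, where fewer probes were above background. Mmp3 and Mmp9 were unmeasured at either gain. With no filter on dim probes both were tested too, so that all 8 members entered. Counts at that setting can therefore include calls at background signal. Causes of the changes below were not tested.

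A percentage in brackets below is the share of all probes called at that setting. Members called against saline under high-dose SXC numbered 3 (57.1%), and 5 with no filter on dim probes (63.0%). They numbered 1 with slide as a random block (46.8%), gain as a block (27.4%), saline as 3 averages of like arrays (41.2%) or without the 10 lower-gain arrays (42.8%). Under low-dose SXC they numbered 2 (39.6%), and 4 without saline arrays 3, 7 and 8 (34.9%). Under valsartan they numbered 1 (58.4%), and 2 with normexp (77.0%) or the smooth muscle scaling (50.2%). They numbered 3 with no filter (67.8%), 0 with gain as a block (13.7%) and 4 without saline arrays 3 and 7 (56.8%) or 3, 7 and 8 (53.9%). Leaving out 1 array gave 1 to 2 (2 without saline array 3 or 7 or valsartan array 6). Arrays 3 and 7 were the lowest saline arrays for 5 of the 6 genes measured, so counts without them rest on raised saline means. High against low dose gave 0 (22.2%), and 2 with no filter (33.8%) or the smooth muscle scaling (22.2%) and 1 without high-dose arrays 1 and 2 (35.5%). Valsartan against low dose gave 1 (25.2%), and 4 with normexp (61.2%), 3 with no filter (43.7%) and 0 with gain or scan day as a block (0.0126% with either). It gave 2 with the mean of a gene's probes (23.0%) or the smooth muscle scaling (21.6%). Valsartan against high dose gave 1 (1.37%). It gave 0 with normexp (0.0716%), slide as a random block (0.0168%), scan day as a block (1.68%), the lower-gain arrays alone (0.0168%) or the smooth muscle scaling (0.0842%). Leaving out 1 array gave 0 to 1 (0 without high-dose array 2, 4 or 5 or valsartan array 3, 5 or 6).

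The signs that changed belong to differences that were not called. Leaving out 1 array moved Timp1 under high-dose SXC between -0.17 and 0.10, Mmp2 under low-dose SXC between -0.093 and 0.15, Timp2 under valsartan between -0.12 and 0.091, and Timp3 for valsartan against low dose between -0.079 and 0.063. Scaling to smooth muscle probes gave against saline Mmp2 0.014 and Timp1 0.15 (high dose), Mmp2 -0.10 (low dose) and Timp1 0.12 (valsartan); for high against low dose Mmp14 0.18, Mmp2 0.11 and Timp2 0.20; and for valsartan against low dose Mmp14 0.049 and Timp3 0.36. Without saline arrays 3 and 7, and in brackets without 8 as well, Timp2 was -0.022 (-0.10) under high-dose SXC and -0.30 (-0.37) under valsartan, Mmp2 -0.29 (-0.37) and Timp3 -0.038 (-0.11) under low-dose SXC, and Timp3 -0.042 (-0.11) under valsartan. Saline as 3 averages without arrays 4 and 8 gave Timp1 0.045 and leaving out high-dose arrays 1 and 2 gave 0.21 under high-dose SXC. Normexp gave Mmp2 -0.021 under low-dose SXC and Timp2 -0.21 under valsartan. Quantile normalisation gave Mmp2 -0.087 under low-dose SXC and, for high against low dose, Mmp14 0.11 and Timp2 0.18; the authors' values gave -0.081, 0.12 and 0.19. Gain as a block gave Timp2 -0.039 and Timp3 -0.087 under valsartan and Timp1 -0.23 for valsartan against low dose. Scan day as a block gave Timp3 -0.15 for high against low dose and Timp1 -0.13 for valsartan against low dose, and slide as a fixed block gave Timp1 -0.017 for high against low dose. Slide as a fixed block could not be fitted for valsartan comparisons. Saline as those averages with arrays 4 and 8 kept gave Timp2 -0.0059 under valsartan. The 75th percentile over probe averages gave Timp2 -0.072 under valsartan.

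Replicate numbers did not pair the samples: of 36 same-numbered pairs 6 correlated above 0.1 in their deviations from group means, and 5 correlated best with their own number. With the replicate block, members called under valsartan numbered 2 (53.0% of all probes), and Mmp2 was -0.12 under low-dose SXC and Timp2 -0.15 under valsartan. Scaling also moved how many of the called probes lay above saline. Their share was 62.5% for high-dose SXC, 56.8% for low-dose SXC and 56.9% for valsartan, and 41.7%, 54.0% and 38.1% after quantile normalisation, where the median of all probes was -0.23, 0.01 and -0.30.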
